A study of Mus musculus with 6 samples.

Results

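The genes described here are GABA-A receptor subunit genes, chosen by symbol. Gabra2, Gabra3 and Gabra5 were taken as early maturing, Gabra4, Gabra6 and Gabrb2 as late maturing, and Gabrb1 as neither, which makes 7 genes. The deposited table held 7 probes for 6 of them, among 18138 gene symbols, and Gabra2 was not analysed here. GABA-A receptors are the chloride channels opened by GABA, the main inhibitory transmitter of the brain, and each receptor is assembled from subunits of several gene families, mostly alpha, beta and a gamma or delta subunit. GABA binds between the alpha and beta subunits, and the subunit make-up sets how long the channel stays open and whether the receptor sits at or outside synapses. The subunits are exchanged as the rodent brain matures: alpha2, alpha3 and alpha5 are abundant around birth, whereas alpha4, alpha6, beta2 and delta rise in the postnatal weeks.

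The measurements came from whole brains of male FVB mice at postnatal day 6, with 3 Illumina MouseRef-8 v2.0 arrays of hSRY-OFF and 3 of hSRY-ON mice. By the study's definition of hSRY-OFF and hSRY-ON, all mice carried the Signalox-hSRY transgene. It was integrated as a single copy in the same locus of chromosome 11 in a single mouse line. The study also calls the hSRY-OFF array mice controls, a word it uses elsewhere for littermates without the transgene. In hSRY-OFF mice the CAG promoter, active in most cell types, drives the red reporter DsRed2 and the human SRY coding sequence is silent. In hSRY-ON mice, Cre recombinase from the oocyte of a Ddx4-Cre mother had removed the red reporter at the start of development, so that CAG drives FLAG-tagged human SRY together with EGFP, and the hSRY-ON mice on the arrays did not carry the Ddx4-Cre transgene themselves. An effect of SRY and an effect of the exchange of reporters cannot be told apart in this design. If hSRY-OFF mice carried the unrecombined transgene, the described cross implies other mothers, so mother and litter could not be told apart either. The comparison asks how subunit expression in the brain differs when human SRY is active. The study chose this age because growth retardation was visible while most hSRY-ON pups were still alive. It also reports a lack of milk in their stomachs and smaller brains. The part of retarded growth in the values was not tested. The study describes biological triplicates, whereas the labels name no animals or litters, so p-values measure the spread between these samples.

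The table contains no probe sequences and the transgene itself was not measured here. Because human SRY binds DNA through its HMG box, the 250 bases upstream of an annotated start are shown for an early and a late gene (RefSeq, GRCm38.p6, minus strand, 5′ to 3′), with AACAAT or its complement ATTGTT, the core that SRY and SOX proteins are known to bind, in capitals. The early gene is Gabra3, at chrX:72656920-72657169, and the late gene is Gabra6, at chr11:42321073-42321322.

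Gabra3: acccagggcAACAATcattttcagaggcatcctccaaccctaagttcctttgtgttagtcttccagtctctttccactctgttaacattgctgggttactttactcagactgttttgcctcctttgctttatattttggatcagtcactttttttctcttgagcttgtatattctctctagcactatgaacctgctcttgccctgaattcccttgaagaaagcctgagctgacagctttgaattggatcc

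Gabra6: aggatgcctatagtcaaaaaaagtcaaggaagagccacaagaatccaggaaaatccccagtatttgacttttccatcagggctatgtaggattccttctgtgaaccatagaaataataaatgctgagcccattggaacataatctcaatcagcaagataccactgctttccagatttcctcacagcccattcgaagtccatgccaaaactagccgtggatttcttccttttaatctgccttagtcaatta

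This window of Gabra3 held 1 match, which began 241 bases upstream of the start, that of the other annotated start of Gabra3 held none, and Gabra6 held none. Of 11 such windows for the 7 genes, which include alternative starts, 2 had a match, and the other belonged to a downstream start of Gabrb1. Among all 32851 promoter windows of the same length, 9.42% held a match on either strand. A match in a window this short describes the sequence and says nothing of binding. In the same annotation, Gabra2, Gabra4, Gabrb1 and Gabrg1 lie together on chromosome 5, Gabra6 and Gabrb2 both lie on chromosome 11, Gabra5 lies with Gabrg3 on chromosome 7, and Gabra3 lies between Gabre and Gabrq on the X chromosome.

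The signal of 3 of the 7 probes, for Gabra3, Gabrb1 and Gabrb2, was detected above background on all 6 arrays. The other 4 probes were detected on none, where detection means that less than 0.05 of the negative-control beads were as bright as the probe. None of the 3 detected genes passed the test between hSRY-ON and hSRY-OFF, and the confidence intervals of their log2 fold changes (-0.15, -0.09 and -0.08) all included 0. All 3 values lay below 0, as did 48.9% of all tested probes, and the groups overlapped for each of the 3, where 27.7% of all tested probes did not overlap. In the same fit, 308 of 14215 tested probes were called at an adjusted p under 0.05 (2.17%, made up of 0.844% higher and 1.32% lower in hSRY-ON), and 20.9% had an unadjusted p under 0.05, against 0 of the 3 probes by either measure (limma). The early and late genes were therefore compared through only Gabra3 and Gabrb2.

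**Figure D1:**
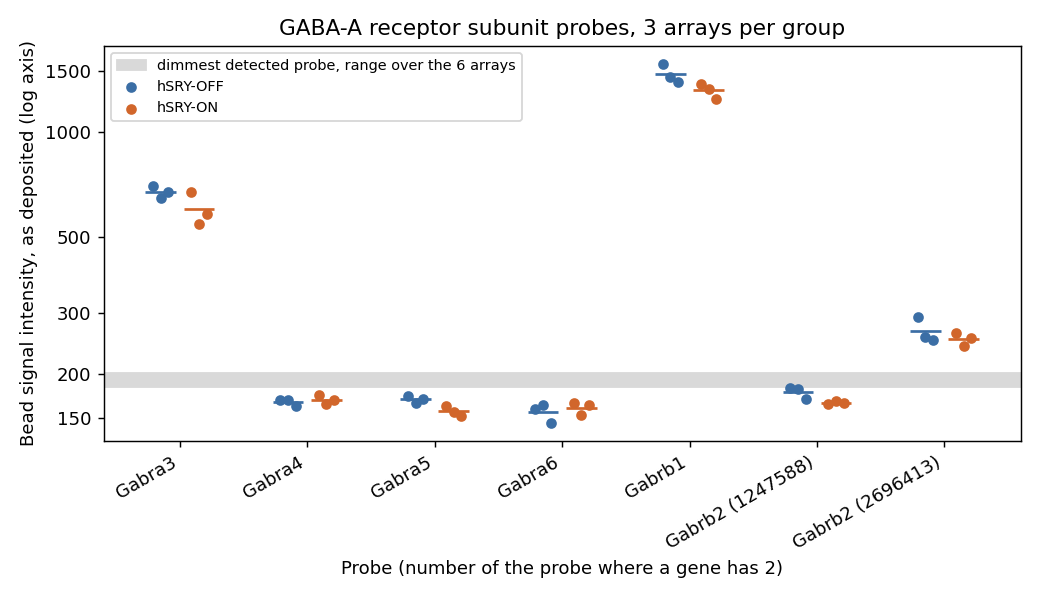
Bead signal intensity as deposited (log axis) of the 7 probes of Gabra3, Gabra4, Gabra5, Gabra6, Gabrb1 and Gabrb2, with a point for each of 3 hSRY-OFF and 3 hSRY-ON arrays and a bar at the group mean. The grey band spans the signal of the dimmest detected probe over the 6 arrays, from 184 to 203, and 4 of the 7 probes lie below it.

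Gabra3, the early alpha3 subunit of the embryonic and newborn forebrain and brainstem, had normalized log2 signals of 8.91, 8.97 and 9.09 in the hSRY-OFF samples and 8.99, 8.70 and 8.83 in the hSRY-ON samples, in the order of their replicate numbers, as for all values by array. The groups overlapped, since hSRY-ON array 1 was brighter than hSRY-OFF arrays 1 and 2. The means were 8.99 ± 0.09 and 8.84 ± 0.14 (SD, n = 3 each). They differed by -0.15 (hSRY-ON minus hSRY-OFF; SE 0.10, limma adjusted p 0.442), with a 95% confidence interval from -0.39 to 0.09.

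Gabrb1, the beta1 subunit, is expressed in hippocampal neurons and also in astroglia. Its log2 signal was 10.28, 10.36 and 10.34 in hSRY-OFF and 10.23, 10.30 and 10.17 in hSRY-ON. The groups overlapped through hSRY-ON array 2, which lay above hSRY-OFF array 1. The log2 fold change was -0.09 (SE 0.08, limma adjusted p 0.533, interval -0.27 to 0.09).

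Gabrb2, the beta2 subunit, abundant in the adult brain, had 1 detected probe, close to background, with deposited intensities from 242 to 293. The log2 signal of its detected probe was 6.92, 6.76 and 6.74 in hSRY-OFF and 6.77, 6.66 and 6.76 in hSRY-ON. Only hSRY-ON array 2 lay below every hSRY-OFF array. The log2 fold change was -0.08 (SE 0.09, limma adjusted p 0.660, interval -0.28 to 0.13), and without background correction it was -0.03 (adjusted p 0.814). The remaining probe for Gabrb2 was below background on all 6 arrays, with deposited intensities from 165 to 183, and gave no reading.

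**Figure D2:**
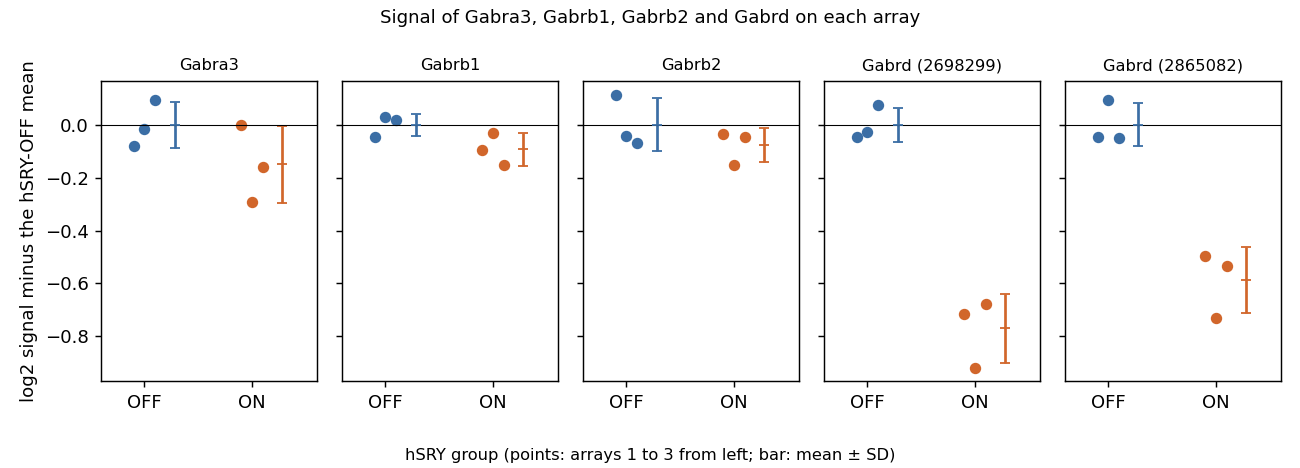
Normalized log2 signal of the detected probes of Gabra3, Gabrb1, Gabrb2 and Gabrd (which has 2 probes) on each array, minus the mean of the 3 hSRY-OFF arrays, with the mean ± SD of each group (n = 3) beside the points. The groups overlap for Gabra3, Gabrb1 and Gabrb2 and do not for either Gabrd probe.

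The early and the late gene were set against each other within each array, as the log2 signal of Gabrb2 minus that of Gabra3, with the hSRY-OFF mean set to 0. In hSRY-OFF this difference was 0.19, -0.03 and -0.17, and in hSRY-ON it was -0.03, 0.14 and 0.11. All 3 hSRY-ON values lay within the range of hSRY-OFF. The means differed by 0.07, less than the SD of 0.18 in hSRY-OFF and of 0.09 in hSRY-ON (n = 3 each). No test was made of this difference, because the genes were chosen with results of these data known, and it rests on 1 probe on either side.

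The other probes below background belonged to alpha subunits of restricted location. Gabra4 (the alpha4 subunit, found outside synapses in thalamus and dentate gyrus) had deposited intensities from 162 to 175. Gabra5 (alpha5, which carries tonic inhibition in the hippocampus) had 152 to 174, and Gabra6 (alpha6, confined to cerebellar granule cells and the cochlear nucleus) had 145 to 165. The dimmest detected probe of an array had 184 to 203. The lowest detection p-value over the 6 arrays was 0.262 for Gabra4, 0.279 for Gabra5 and 0.495 for Gabra6, so neither group held a reading for them and no fold change is given. Probes for other genes known to be active in brain, namely Snap25, Nefl, Gad2, Calb1 and Neurod1, were likewise not detected in enough arrays to be tested, and a probe without signal therefore does not show that the transcript was missing.

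The profile of Gabra3 over the 6 arrays was then set against all other tested probes, because Gabra3 had the lowest p among the detected genes. By root mean square distance of log2 values, each centred on the mean of its probe, the nearest of 14214 probes were those of Asb8 (0.028), Ints3 (0.029), Tuba3b (0.038), Hapln3 (0.038) and Lmna (0.039). None of these 5 was called (limma adjusted p 0.329 to 0.501). Gabrb1 ranked 1267 and Gabrb2 ranked 1621 in this order, at distances of 0.12 each.

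Of 9 further subunit genes described here, which are not the whole of the family, 7 had probes, 10 in all, and 3 of these probes in 2 genes (Gabrd and Gabrg1) were detected on all 6 arrays. Gabrd, the delta subunit of extrasynaptic receptors that pairs with alpha4 and alpha6 and is abundant in cerebellar granule cells and thalamus, was lower in hSRY-ON at both of its probes. For probe ILMN_2698299 the log2 signal was 8.32, 8.34 and 8.44 in hSRY-OFF and 7.65, 7.45 and 7.69 in hSRY-ON, and the groups did not overlap. The signal fell by 41.4%, with a log2 fold change of -0.77 (SE 0.09, limma adjusted p 0.0263, interval -0.99 to -0.55). For probe ILMN_2865082 it was 8.24, 8.38 and 8.24 against 7.79, 7.56 and 7.75, again without overlap, a log2 fold change of -0.59 (SE 0.09, limma adjusted p 0.0348, interval -0.81 to -0.36). The calls lower in hSRY-ON made up 1.32% of all tested probes, and 14.2% of all tested probes were lower without overlap. Both intervals lie wholly below 0, and that of ILMN_2698299 lies wholly below those of Gabra3, Gabrb1 and Gabrb2. The difference between Gabrd and those genes was not tested.

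Without background correction the log2 fold changes of Gabrd were -0.48 and -0.37, with both probes called (limma adjusted p 0.000626 and 0.00397), and with no filter on dim probes ILMN_2865082 was not called (adjusted p 0.0573). The calls also depended on the arrays. Both probes lost the call when any array other than hSRY-ON array 3 was left out, with limma adjusted p 0.0614 to 0.109 for ILMN_2698299 and 0.0780 to 0.120 for ILMN_2865082, while the log2 fold changes lay between -0.80 and -0.70 and between -0.63 and -0.52. In those fits, 0 to 1 of all tested probes were called, so the loss was not particular to Gabrd.

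In whole tissue, fewer cells of a type and less RNA per cell cannot be told apart. Markers of cell types were therefore read on the same arrays, as the log2 of the summed linear signals. The 7 tested probes of granule cell markers summed to 13.98 to 14.14 in hSRY-OFF and 14.07 to 14.14 in hSRY-ON, with 0 called (1 at an unadjusted p under 0.05, limma), and Neurod1, Pax6 and Cbln3 of that list could not be tested for want of signal. Of these 7 probes, 6 lay above 0. Without overlap, 1 was higher (Etv1, log2 fold change 0.37) and 1 lower (Cbln1, -0.16), and the brightest probe was that of Reln. Neuron markers spanned 15.81 to 15.95 and 15.86 to 15.91, without Snap25 and Nefl, with 6 of 8 tested probes below 0, 2 of them lower without overlap, and 0 called (0 at an unadjusted p under 0.05, limma). Such a sum is carried by its brightest probes, so the single probes are given as well, beside the 1.32% of all tested probes that were called lower and the 14.2% lower and 13.5% higher without overlap. Purkinje cell markers summed to 12.48 to 12.67 in hSRY-OFF and 12.13 to 12.20 in hSRY-ON. Of 3 tested probes, 2 lay below 0, both lower without overlap. Of these, 1 was called lower (Pcp2, log2 fold change -0.97, limma adjusted p 0.0243). Oligodendrocyte markers summed to 14.71 to 15.11 and 14.35 to 14.39, with 11 of 12 below 0. Of the 12, 8 were lower without overlap (8 at an unadjusted p under 0.05, limma). The 2 called lower were probes of Mobp (-1.05 and -1.36, limma adjusted p 0.0225 and 0.0348). The endothelial sums were also lower without overlap (12.34 to 12.48 against 11.92 to 12.19), but the probes went both ways, 4 of 6 below 0 with 3 lower and 1 (Flt1, 0.49) higher without overlap, and 0 were called (4 at an unadjusted p under 0.05, limma). The microglial sums were higher without overlap (10.92 to 11.07 against 11.21 to 11.28), with 4 of 7 probes above 0, 3 below 0 and 0 called (2 at an unadjusted p under 0.05, limma). In the interneuron list, whose sums overlapped, Pvalb fell (log2 fold change -1.27, limma adjusted p 0.0240) and the other 9 of 10 tested probes lay above 0, with 2 higher without overlap, although Lhx6, among the 9, was tested only through hSRY-ON, where it was brighter. In the astrocyte list, whose sums also overlapped, Gfap and Aqp4 fell (-0.83 and -0.81, limma adjusted p 0.0308 and 0.0275), with 6 of 8 tested probes below 0 and 4 lower without overlap. Calb1 and Pcp4 of the Purkinje list, Kdr of the endothelial list and Itgam of the microglial list were not detected. The part of these cell types in the values of Gabrd was not tested.

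**Figure D3:**
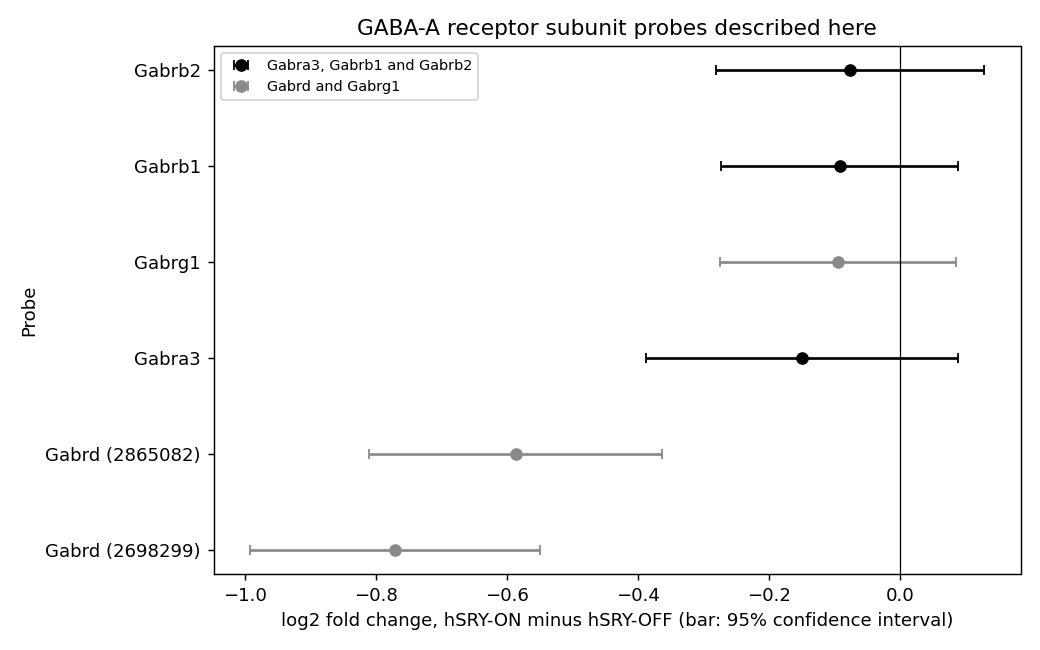
Log2 fold change (hSRY-ON minus hSRY-OFF) with its 95% confidence interval for the detected probes of Gabra3, Gabrb1 and Gabrb2 (black) and of Gabrd and Gabrg1 (grey). The intervals of the 2 Gabrd probes lie below 0, and the other 4 include 0.

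Gabrg1, a gamma subunit also found in glia, had log2 signals of 6.01, 6.10 and 5.96 in hSRY-OFF and 5.94, 5.93 and 5.91 in hSRY-ON. The 3 hSRY-ON arrays all lay below the hSRY-OFF arrays, where 14.2% of all tested probes were lower without overlap, but the deposited intensities, close to background at 204 to 228, overlapped. The log2 fold change was -0.10 (SE 0.08, limma adjusted p 0.521, interval -0.28 to 0.09) and did not pass the test, and without background correction it was -0.03. The probes of Gabrg3, Gabrp, Gabrq, Gabrr1 and Gabrr2, 7 in all, were not detected on any array. Gabre and Gabrr3 were not analysed here. For Gabra3, Gabrb1 and Gabrb2 the median log2 fold change was -0.09, against 0.0048 for all tested probes.

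Genes that make, release and take up GABA were examined next, from a list of 14 that included the subunits of the metabotropic receptor. Of these, 12 had probes, and 12 probes of 9 genes were tested. None was called in limma (2 had an unadjusted p under 0.05, where 20.9% of all tested probes did), and the median log2 fold change was -0.04, with 5 above and 7 below 0. The 3 probes with the lowest p are given here. Slc6a12, the betaine and GABA transporter, had log2 signals of 6.95 ± 0.09 in hSRY-OFF and 7.44 ± 0.30 in hSRY-ON (SD, n = 3 each), which differed by 0.49 (SE 0.15, limma adjusted p 0.131). Without hSRY-ON array 3 its log2 fold change was 0.66 and it passed the threshold (adjusted p 0.0386), and without background correction it was 0.25 and did not (adjusted p 0.0624). Slc6a13, the GABA transporter of meninges and choroid plexus, had 10.32 ± 0.05 and 10.57 ± 0.12, which differed by 0.25 (SE 0.09, adjusted p 0.172). The groups did not overlap for either transporter, where 13.5% of all tested probes were higher in hSRY-ON without overlap. The summed signal of the choroid plexus markers was also higher in hSRY-ON (14.15 to 14.47 against 13.85 to 14.12 on the log2 scale, 0 of 5 tested probes called in limma and 3 at an unadjusted p under 0.05). Of these 3, the probe of Kl was detected on the hSRY-ON arrays alone and was tested only through that group, and Ttr and Clic6 were detected on all 6 arrays, with log2 fold changes of 0.37 and 0.44. The part of the choroid plexus in these values was not tested. Abat, the enzyme that degrades GABA, had 10.83 ± 0.05 and 10.62 ± 0.14 at ILMN_2925947, which differed by -0.21 (SE 0.10, limma adjusted p 0.267). The groups did not overlap at this probe, where 14.2% of all tested probes were lower without overlap. They did overlap at the other tested Abat probes, ILMN_1248367 and ILMN_2752146, with log2 fold changes of -0.18 and -0.07.

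**Figure D4:**
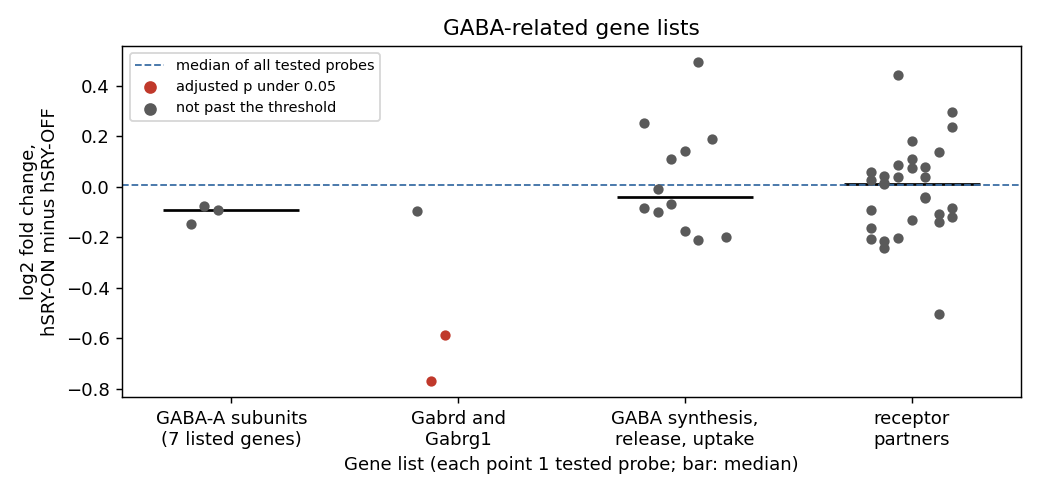
Log2 fold change (hSRY-ON minus hSRY-OFF) of each tested probe of Gabra3, Gabrb1 and Gabrb2, of Gabrd and Gabrg1, and of the lists of GABA synthesis, release and uptake and of receptor partners. Black bars are medians, drawn for all but Gabrd and Gabrg1, the dashed line is the median of all tested probes (0.0048), and of the probes shown only the 2 of Gabrd, in red, passed an adjusted p of 0.05. The lowest point among the receptor partners is a probe of Slc12a2 that was not detected in hSRY-ON.

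Proteins that cluster, traffic or modulate the receptor, and the chloride transporters that set its polarity, formed the last list. Of 21 genes, 18 had probes, and 30 probes of 15 genes were tested. None was called in limma (5 had an unadjusted p under 0.05, where 20.9% of all tested probes did), and the median log2 fold change was 0.01, with 16 above and 14 below 0. The 5 and the 14 include a probe of Slc12a2, and the 14 also a probe of Gabarapl2, that were tested only through the group where they were brighter. The 3 probes with the lowest p belonged to Hap1, Gabarapl2 and Slc12a2. Hap1, which returns internalized receptors to the membrane, had 13.20 ± 0.06 in hSRY-OFF and 13.50 ± 0.08 in hSRY-ON at ILMN_1244829, which differed by 0.30 (SE 0.08, adjusted p 0.109). This probe passed the threshold without background correction (adjusted p 0.0164) and with a prior that follows signal (0.000938), while the other 3 Hap1 probes had log2 fold changes from -0.20 to -0.05. Gabarapl2, a homologue of the receptor-associated protein, differed by 0.44 on the log2 scale (SE 0.13, adjusted p 0.123) at ILMN_1219431 and by 0.14 without background correction (adjusted p 0.219), with the signal close to background. Its other probe was detected on the 3 hSRY-OFF arrays and on 1 of hSRY-ON, and no fold change is given. For Slc12a2, the importer that keeps chloride high in immature neurons, the probe with the lowest p (ILMN_3068197) had deposited intensities of 203, 208 and 209 in hSRY-OFF and 189, 179 and 186 in hSRY-ON. It was detected on the 3 hSRY-OFF arrays and on none of hSRY-ON, and was tested only through the group where it was brighter, so no fold change or p is given. The other tested probes of Slc12a2 had log2 fold changes of 0.14 and 0.06.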

How the data were processed

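For each probe and array of the MouseRef-8 v2.0 BeadChip, the authors deposited a signal intensity on a linear scale, not normalized, and a detection p-value, which gives how often negative-control beads reached that signal. The methods name the R package TCC and the submitters' processing notes name limma, both without settings. TCC is built for counts and was not used here. In R 4.3.3 with limma 3.58.1, control beads being absent from the table, background was estimated through the detection p-values, then removed by normexp (offset 16), followed by quantile normalization on the log2 scale. This widens the spread of dim probes. Probes detected (p under 0.05) on at least 3 of 6 arrays were tested, 14215 of 25697, with lmFit and eBayes on group alone (two-sided, Benjamini-Hochberg over all tested probes, call at an adjusted p under 0.05). Probes of a gene were kept apart.

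Samples were grouped by their titles. Precision is limited by 3 arrays per group, with a median SE of 0.11 for a log2 fold change. Deposited median intensities were 200 to 220, and 13816 to 14377 probes were detected per array. The quantile normalization and the fit were tested on simulated data; the background correction was not. The genes, the lists, the early and late assignment and the alternatives were chosen with earlier results of these data known. Named were all probes of the 7 genes, the other subunits described here and the 5 nearest profiles. In the GABA handling and receptor partner lists, called probes or otherwise the 3 with the lowest p were named. Marker lists were given as sums and counts, with the called markers and some others named. Some subunits are not reported here, so no share or median is given over the other subunits. Marker lists covered neurons, granule cells, interneurons, Purkinje cells, astrocytes, oligodendrocytes, microglia, endothelium, choroid plexus and erythroid cells. The lists whose sums are not given elsewhere follow, as the log2 of summed signals in hSRY-OFF and hSRY-ON. Interneurons had 14.79 to 14.88 and 14.84 to 14.98 (1 of 10 tested probes called, lower in hSRY-ON). Astrocytes had 15.10 to 15.12 and 14.97 to 15.17 (2 of 8 called, both lower). Erythroid markers had 14.99 to 15.17 and 14.83 to 15.15 (0 of 3 called, 0 at an unadjusted p under 0.05 in limma). Alternatives were other background corrections, normalizations, filters, priors and array weights, a replicate block, 1 probe per symbol, other early and late groupings, and leaving out each array. Promoter windows were read from RefSeq (GRCm38.p6). Python 3.11.15 and matplotlib 3.10.9 made the figures.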

Additional observations from a re-analysis of the deposited data

How the results depend on the processing

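The 0 calls among the 3 detected probes of Gabra3, Gabrb1 and Gabrb2 held in every alternative fit run, and each of these probes kept its sign. With no filter on dim probes, the late median, then over probes below background too, was 0.0086. With Gabrd added to the late group its median was -0.59 and the difference from the early gene was -0.44, a grouping chosen after seeing the data. Most probes of that group are then Gabrd, so this median is the value of Gabrd probe ILMN_2865082 itself. Leaving out each array gave -0.22 to -0.08 for the early gene, -0.11 to -0.02 for the late gene and -0.01 to 0.17 for their difference.

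The 2 called probes of Gabrd became 1 with no filter, where ILMN_2865082 had a limma adjusted p of 0.0573. They became 0 with the replicate block (limma adjusted p 0.0986 and 0.110) and 0 to 2 without each array. With 1 probe per symbol, only ILMN_2865082 of Gabrd was tested, and it kept the call (limma adjusted p 0.0276). Over all tested probes, 308 calls became 1317 without background correction, 860 with normexp fitted on the signals (offset 50), 123 with no filter, 705 with detection under 0.01 on all arrays, 1447 with a trend and robust prior, 480 with array weights and 0 with the replicate block (2906 at an unadjusted p under 0.05 in limma), and 0 to 417 without each array. Deviations of same-numbered arrays correlated at 0.025 to 0.040, and all 6 arrays lay closest to their own number, a hint from the data and not from the design, so the numbers were not taken as pairs. The GABA handling list had 0 to 1 calls without each array (1, Slc6a12, without hSRY-ON array 3). The partner list had 1 call without background correction (Hap1) and 2 with the trend and robust prior.

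The causes were not tested. Signal near or below background limits what can be said of Gabra4, Gabra5, Gabra6 and Gabrb2, and 3 arrays per group limit all values.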
